A study of Bos grunniens with 18 samples.

Results

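Hippo signalling genes and the TEAD cofactor VGLL3 were followed in the ovary of the yak (Bos grunniens) at 3 reproductive stages. The set was chosen by gene symbol and held 10 names, VGLL3, YAP1, WWTR1, TEAD1, TEAD3, LATS1, LATS2, STK3, SAV1 and AMOTL2, and its members were looked up among the genes of the expression table and in the m6A peak list of each stage. Of the 10 names, 2 were found among the 307 genes analysed here. VGLL3 had expression values and peaks, and AMOTL2 had peaks only. WWTR1 appeared only as a site in tables that compare peaks between stages, and YAP1, TEAD1, TEAD3, LATS1, LATS2, STK3 and SAV1 were not analysed here. The peaks of VGLL3 were known when the set was drawn up, so its peaks are given as a description with no test.

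Frozen ovary tissue came from healthy adult yaks of the same age on 1 farm, which were killed at anestrus in April, at estrus (the follicular phase) in August and during pregnancy in December. Each stage gave 3 ovary samples, and from each sample an m6A immunoprecipitation library and its input library were made, 18 libraries in all. Because each stage was collected in a different month, stage and date of collection cannot be told apart. The samples are numbered 1 to 3 within a stage, and the study left estrus 2 out of its comparisons because it stood apart from the others, so its values are given separately here. The ovary was sampled as bulk tissue, in which fewer cells of a type and less RNA per cell cannot be told apart. None of the 44 ovarian marker genes on the list used here, for granulosa, theca and luteal, oocyte, muscle, endothelial, leukocyte and epithelial cells, was among the 173 genes with expression values, so the tissue label could not be checked against them.

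In the Hippo pathway, the MST kinases (STK3 is one) act with the scaffold SAV1 on the LATS kinases LATS1 and LATS2, which phosphorylate the coactivators YAP1 and WWTR1 (TAZ) and keep them out of the nucleus. In the nucleus YAP1 and WWTR1 bind the TEAD transcription factors, TEAD1 and TEAD3 among them, and switch on genes of growth and matrix. VGLL3 is a vestigial-like protein that binds TEAD factors at the surface that YAP1 also uses, and AMOTL2 is an angiomotin that holds YAP1 in the cytoplasm and at cell junctions. In the ovary the pathway is known for its part in the growth of follicles. m6A is a methyl mark on adenosines of messenger RNA that bears on the stability and translation of the transcript, and it is often found near the stop codon and in the 3′ UTR.

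VGLL3 (ENSBGRG00000000004) lies on the plus strand of chromosome 1 at 956005 to 1012265 in the authors' yak genome, a span of 56261 bases, with a transcript of 5 exons. It carried 6 of the 309 peaks in the analysed parts of the 3 lists, with 3 at anestrus, 1 at estrus and 2 in pregnancy. On the plus strand these parts reached 22449705 at anestrus, 36965772 at estrus and 172200451 in pregnancy. Peak numbers and ranks below hold for these parts and do not compare the stages. A peak is a stretch of exonic sequence in which the immunoprecipitated reads exceed the input reads. It is given as 1 or more blocks, split as a rule where it crosses introns. Its annotation is 1 label for the whole peak, also where some of its blocks lie in other exons. Each list pools the samples of its stage, so no spread between samples stands behind a peak, and the sources used here do not say whether estrus 2 was among the pooled samples.

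At anestrus, the first VGLL3 peak covered 956124 to 956392, 269 bases annotated as 5′ UTR, with a fold enrichment of immunoprecipitate over input of 8.91. Its log10 p was -1.95 and its log10 FDR -1.18, the weakest p of the 9 anestrus peaks. The second ran from 956600 to 969814 across the first intron, with 180 exonic bases in 2 blocks annotated to exon 1 of 5. Its blocks held 14 bases before the intron and 166 after it. Its fold enrichment was 20.8 with a log10 p of -22.1, and by fold enrichment it stood first of the 9. The last ran from 982761 to 1011729, with 328 exonic bases annotated as 3′ UTR, a fold enrichment of 6.13 and a log10 p of -41.4. The order by fold enrichment and the order by p therefore differed within the gene, since the 3′ UTR peak had the lowest p and the lowest enrichment of the 3.

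At estrus, VGLL3 had a single peak from 956570 to 969695, with 91 exonic bases in 2 blocks annotated to exon 1 of 5. Its blocks held 44 bases before the first intron and 47 after it. Its fold enrichment was 13.8, the second highest of the 18 estrus peaks, while its log10 p of -3.27 and log10 FDR of -2.66 placed it at rank 12 by p. It was the shortest of the 18 peaks. No 3′ UTR peak of VGLL3 was listed at estrus, although 6 of the 18 estrus peaks were annotated as 3′ UTR. The mean VGLL3 level in the input libraries was also lowest at estrus. It was 2.49 FPKM without estrus 2, against 3.82 FPKM at anestrus and 4.84 FPKM in pregnancy. Whether the level bears on which peaks were listed was not tested.

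In pregnancy, the first VGLL3 peak began at the first base of the gene and ran from 956005 to 982433. It held 1072 exonic bases in 4 blocks of 609, 286, 107 and 70 bases. The third block ended at 982361 and the fourth began at 982364, a gap too short for an intron. It was annotated as 5′ UTR, with a fold enrichment of 17.8 and a log10 p of -25.9. This enrichment was the highest of the 28 pregnancy peaks annotated as 5′ UTR and the seventh of all 282, and only 3 of the 282 peaks were longer in exonic bases. The second ran from 982612 to 1011551, with 299 exonic bases annotated as 3′ UTR, a fold enrichment of 4.15 and a log10 p of -25.5. It stood in the middle of the list, at rank 161 of 282 by fold enrichment and at rank 33 of the 58 peaks annotated as 3′ UTR.

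**Figure D1:**
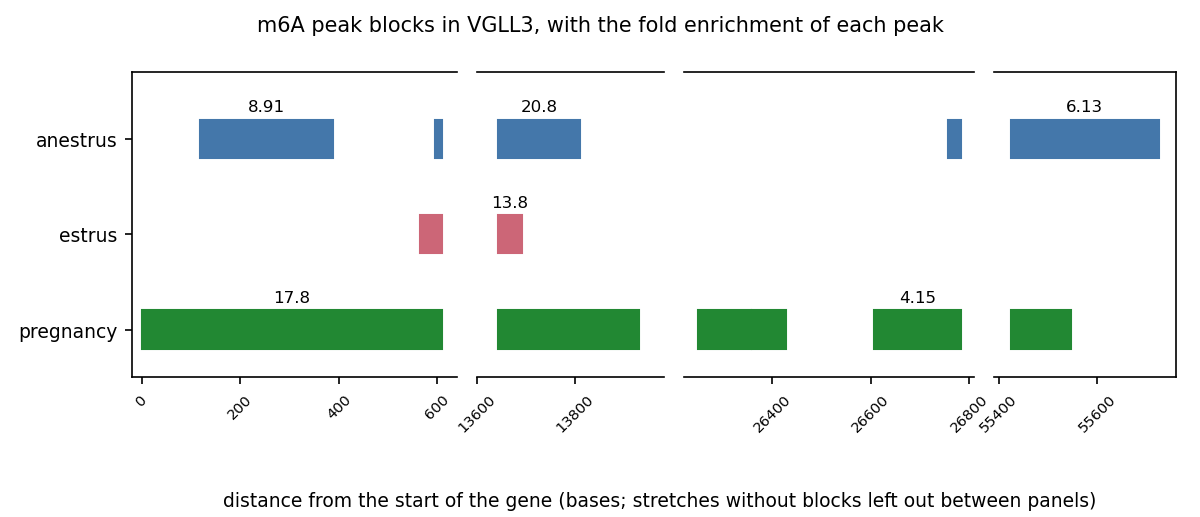
m6A peak blocks of VGLL3 at anestrus, estrus and in pregnancy, drawn to scale along the gene (x axis, bases from its first base, with empty stretches left out between panels); each number is the fold enrichment of 1 peak, written above its longest block. Blocks near the start of the gene were listed at all 3 stages, and the last panel holds blocks at anestrus and in pregnancy but none at estrus. A difference between the stages was not tested, and the VGLL3 level was lowest at estrus.

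The blocks of the 3 stages shared their edges at the exon borders. A block ended at 956613 and the next began at 969649 in every list, and 61 exonic bases lay in peaks at all 3 stages. These were 956600 to 956613 and 969649 to 969695, the end of the first region and the start of the next. In all, 777 exonic bases of VGLL3 lay in peaks at anestrus, 91 at estrus and 1371 in pregnancy, and 1549 at any stage.

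The estrus peak lay wholly inside the first pregnancy peak, so the shared 91 bases were 100% of the estrus bases and 6.64% of the pregnancy bases. Anestrus and estrus shared 61 bases, 7.85% of the anestrus bases and 67.0% of the estrus bases. Anestrus and pregnancy shared 599 bases, 77.1% of the anestrus and 43.7% of the pregnancy bases. In the last region, at 1011429 to 1011729, 301 bases were in a peak at anestrus, 123 in pregnancy and 0 at estrus.

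Within VGLL3 the peaks near the start of the gene had higher enrichments than the 3′ UTR peak, in the anestrus list and in the pregnancy list. Over the pregnancy list, the first peak had a higher fold enrichment than the last in 36 of 65 genes with 2 or more peaks, or 55.4%. The analysed parts of the lists cover unlike stretches, so their medians do not compare the stages. VGLL3 itself gave 3 of the 9 peaks behind the anestrus median. The median fold enrichment was 5.03 at anestrus, 3.95 at estrus and 4.43 in pregnancy, and 5 of the 6 VGLL3 peaks were above the median of their own list, all but the 3′ UTR peak of pregnancy.

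**Figure D2:**
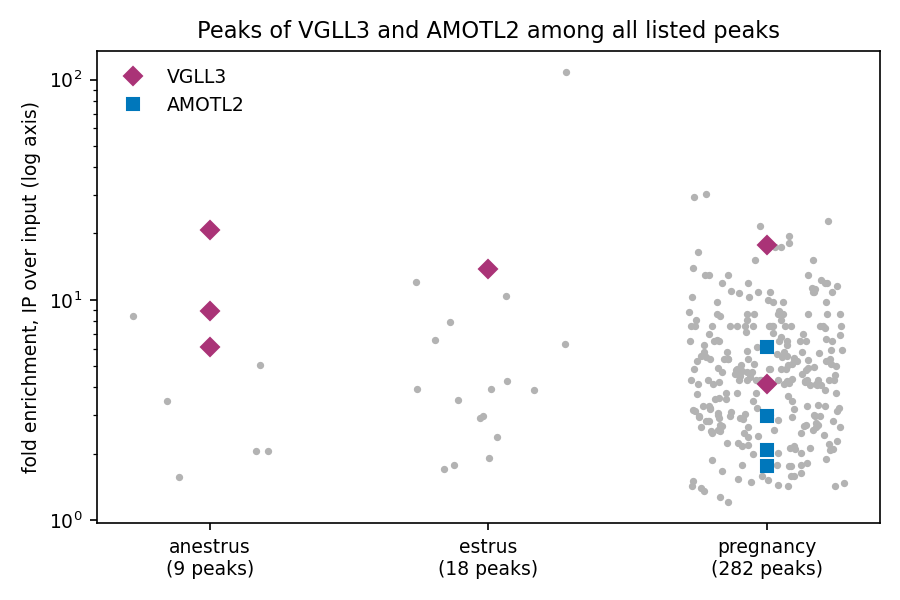
Fold enrichment (immunoprecipitate over input, log axis) of each peak in the analysed part of its list: anestrus (9 peaks), estrus (18) and pregnancy (282). Diamonds are VGLL3, squares AMOTL2 and grey points other genes, spread sideways only to keep them apart. The parts cover unlike stretches, so the numbers of peaks do not compare the stages. The highest VGLL3 peak of each stage, at 20.8, 13.8 and 17.8, stands near the top of its list, and the AMOTL2 peaks lie between 1.76 and 6.12.

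The 3 lists cover the same stretch of chromosome 1 only up to 22449705 on the plus strand, with 9 anestrus, 5 estrus and 6 pregnancy peaks in it. Of the 16 plus-strand genes with expression values there, 8 had a peak in any list and 3 had a peak in all of them, VGLL3, USP25 (a deubiquitinase) and ENSBGRG00000000034. VGLL3 was the 8th of the 10 genes there whose mean was at least 1 FPKM, with a mean of 3.46 FPKM over the 9 libraries. ROBO1, a guidance receptor, had a mean of 12.7 FPKM and no listed peak there. ENSBGRG00000000034 had a mean of only 0.0434 FPKM. Its peaks had fold enrichments of 8.42 at anestrus, 7.89 at estrus and 7.56 in pregnancy, so high enrichments were also listed where the input was near 0.

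VGLL3 was expressed at a low to middling level in the input libraries. At anestrus its level was 6.41, 2.24 and 2.81 FPKM in samples 1 to 3, with a mean of 3.82 ± 2.26 FPKM (SD, n = 3). At estrus it was 2.18 FPKM in sample 1 and 2.81 FPKM in sample 3, a mean of 2.49 ± 0.443 FPKM (SD, n = 2), and in pregnancy 5.80, 3.55 and 5.17 FPKM, a mean of 4.84 ± 1.16 FPKM (SD, n = 3). Estrus was the lowest stage and pregnancy the highest by mean. Estrus 3 lay within the range of anestrus and estrus 1 just below it, both lay below all 3 pregnancy samples, and anestrus 1 was higher than every other library. In each of these 8 libraries between 46.8% and 62.4% of the 173 genes had a lower FPKM than VGLL3.

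In estrus 2 VGLL3 was at 0.135 FPKM. That was 16.1-fold below the lowest of the other 8 libraries and 23.5-fold below their median of 3.18 FPKM. On the log2(FPKM + 0.1) scale the gap to the lowest other library was -3.28, the largest of the 130 genes tested, followed by the guidance receptors ROBO2 and ROBO1. ROBO2 was at 1.35 FPKM in estrus 2 and at 12.4 to 25.4 FPKM elsewhere, and ROBO1 at 1.16 against 9.80 to 24.5 FPKM. VGLL3 was therefore among 19 of 130 genes, 14.6%, whose value in estrus 2 was more than 1 on that scale below all other libraries. The order depended on the pseudocount, of which 2 others were chosen after the values were seen. At 0.01 VGLL3 still led, with a gap of -3.91, and at 1 it stood at rank 8, with a gap of -1.49, behind the protease ADAMTS1 at -2.68. CHMP2B, a gene of endosomal sorting 286149 bases from VGLL3 on the minus strand, was at 16.6 FPKM in estrus 2, within its range of 12.6 to 24.2 FPKM elsewhere.

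**Figure D3:**
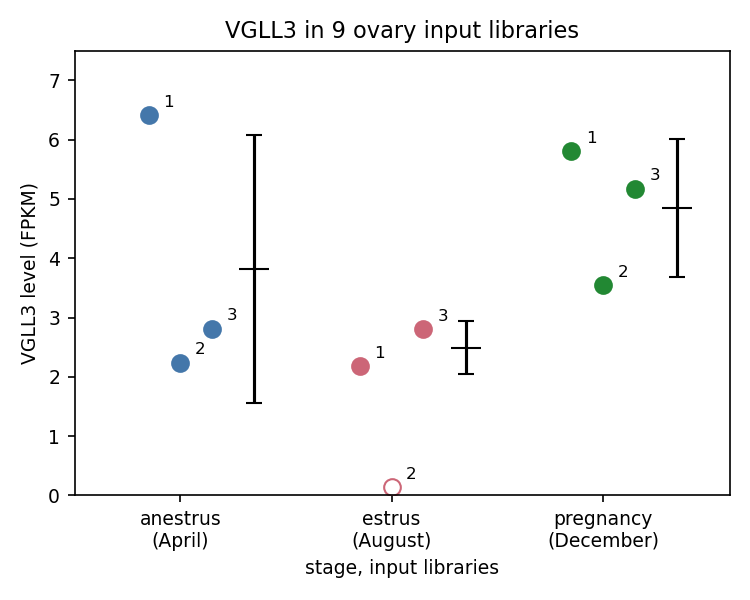
VGLL3 level (FPKM) in each of the 9 ovary input libraries by stage, numbered by sample, with the mean and SD of each stage as a bar; the open point is estrus 2, which is not in the estrus mean. Estrus 1 and 3 lie below all 3 pregnancy samples, and estrus 2 stands at 0.135 FPKM.

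The comparisons between stages asked whether VGLL3 expression changed over the reproductive cycle. In the fit of 8 libraries, without a replicate block, VGLL3 passed the threshold that the study used (a log2 difference of 1 or more in size and an unadjusted p under 0.05) in none of the 3 comparisons. That threshold called 1.54% of the 130 genes tested in estrus against anestrus, 2.31% in estrus against pregnancy and 2.31% in pregnancy against anestrus. No gene of the 130 passed a Benjamini-Hochberg adjusted p of 0.05 in limma in any comparison. At an unadjusted limma p under 0.05, 12 genes (9.23%), 12 genes (9.23%) and 4 genes (3.08%) passed in the 3 comparisons.

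Estrus against pregnancy gave the largest of the 3 differences of VGLL3. It was 1.88-fold lower at estrus, a log2 difference of -0.91 (SE 0.44, 95% interval -1.91 to 0.09), with a limma p of 0.0687 and a Benjamini-Hochberg adjusted p of 0.535. The estrus and pregnancy samples did not overlap, which held in this direction for 6.92% of the 130 genes, and for 3.85% with estrus 2 counted. The exact two-sided permutation p was 0.2, the smallest that 2 against 3 samples can give.

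The other 2 differences lay inside the spread between samples. Estrus minus anestrus was -0.46 on the log2 scale (SE 0.44, 95% interval -1.46 to 0.54, adjusted p = 0.743 in limma, exact permutation p = 0.4), with overlapping samples. Pregnancy minus anestrus was 0.45 (SE 0.39, 95% interval -0.44 to 1.35, adjusted p = 0.910 in limma, exact permutation p = 0.4), again with overlapping samples. Without anestrus 1, which held the highest VGLL3 value, these became -0.02 and 0.89. In that fit pregnancy minus anestrus had an unadjusted limma p of 0.0216 and an adjusted p of 0.938. Estrus minus pregnancy stayed at -0.91 there, with an unadjusted limma p of 0.0200 and an adjusted p of 0.268. The SE of estrus minus pregnancy fell there from 0.44 to 0.28, although none of its own samples had changed. The library left out was singled out for its high value, which lowers the spread, so these unadjusted p-values carry no weight. Neither difference passed the study's threshold, since both were under 1 in size. The median log2 difference of all 130 genes was 0.07, 0.07 and -0.03 in the 3 comparisons in the order of their naming above.

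With estrus 2 included, VGLL3 passed the study's threshold in estrus against pregnancy, and the estrus mean became 1.71 ± 1.40 FPKM (SD, n = 3). The log2 difference was -2.06 (SE 0.89, 95% interval -4.11 to -0.02), with an unadjusted p of 0.0483 and an adjusted p of 0.442 in limma. It called 3.85% of the 130 genes in this comparison of 9 libraries. The exact permutation p was 0.1, the smallest that 3 against 3 samples can give. Estrus minus anestrus became -1.61 (SE 0.89, 95% interval -3.65 to 0.43, adjusted p = 0.494 in limma). With this library the SE rose from 0.44 to 0.89, and the same fit without it did not call VGLL3.

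**Figure D4:**
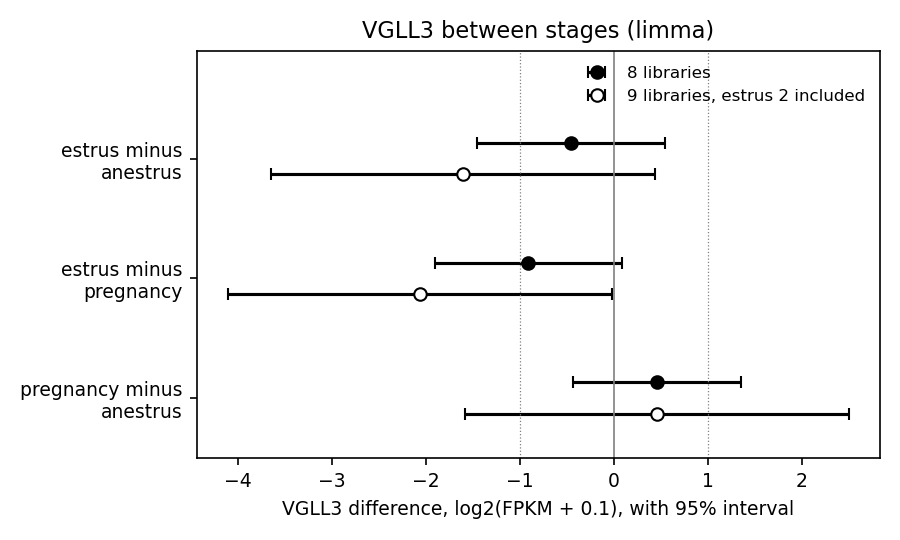
Difference of VGLL3 between stages on the log2(FPKM + 0.1) scale with its 95% interval from limma, from 8 libraries (filled) and with estrus 2 included (open); the dotted lines mark a log2 difference of 1 in either direction. Only estrus minus pregnancy with estrus 2 has an interval below 0, from -4.11 to -0.02.

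The genes whose levels followed VGLL3 most closely over the 8 libraries were PCOLCE2, ROBO1 and CD96, of 81 genes with a symbol and a mean of at least 1 FPKM. PCOLCE2 helps to process procollagen, and its Pearson r with VGLL3 on the log2 scale was 0.749. It was at 34.0 FPKM in anestrus 1, its highest library as for VGLL3, and at 9.19 FPKM in estrus 1, the lowest of both. ROBO1 had an r of 0.714 and CD96, a receptor of lymphocytes, 0.678. No gene had an r above 0.8, the median was -0.18, and the points share their libraries and stages. The lowest r was -0.85, larger in size than the highest. With estrus 2 as a 9th library the order changed, to 0.959 for ROBO1, 0.456 for PCOLCE2 and -0.10 for CD96, which was at 1.91 FPKM there.

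Of 53 other genes of the pathway on the list used here, from upstream regulators to targets, 1 was among the genes tested, and it was not called in any comparison. This was F3, tissue factor, a known target of YAP1 and TEAD. It was at 2.20, 8.13 and 3.68 FPKM at anestrus, at 6.33 and 4.14 FPKM in estrus 1 and 3, at 1.40 FPKM in estrus 2, and at 2.52, 8.25 and 6.09 FPKM in pregnancy. The stages overlapped, with log2 differences of 0.33 for estrus minus anestrus, 0.02 for estrus minus pregnancy and 0.31 for pregnancy minus anestrus. Where VGLL3 was highest, in anestrus 1, F3 was at its lowest of the 8 libraries. In estrus 2, by contrast, both genes were at their lowest of all 9 libraries. A relation between the levels of VGLL3 and F3 was not tested.

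The authors' pathway annotation placed 5 further genes under Hippo signalling, of which 4 were at or below 0.0574 FPKM in every library. The other was ITGB2, the beta chain of leukocyte integrins. It ranged from 2.95 to 5.86 FPKM at anestrus, was at 10.9 and 3.93 FPKM in estrus 1 and 3, at 9.17 FPKM in estrus 2, and ranged from 3.33 to 10.5 FPKM in pregnancy. It overlapped between the stages, and its adjusted p in limma was 0.743 for estrus against anestrus, 0.982 for estrus against pregnancy and 0.910 for pregnancy against anestrus.

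AMOTL2 (ENSBGRG00000003321), at 147090379 to 147107653 on the plus strand of chromosome 1, had 4 peaks in the pregnancy list. The gene spans 17275 bases with 10 exons, and 663 exonic bases lay in its peaks. Only 9 of the 176 genes in that list had 4 or more peaks, and the most in a gene was 8. The anestrus and estrus lists analysed here end before the gene, so its peaks could not be compared between stages.

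The AMOTL2 peak nearest to the start, at 147090559 to 147090709 in exon 1, had the highest enrichment, 6.12, and the weakest log10 p, -3.14. The peaks annotated to exon 3, at 147096131 to 147096221, and exon 4, at 147097516 to 147103583, had fold enrichments of 2.08 and 1.76 with log10 p of -12.6 and -27.1. The last peak, at 147106686 to 147107653, ended at the last base of the gene and was annotated as 3′ UTR. It had a fold enrichment of 2.98 and a log10 p of -162, rank 203 of 282 by enrichment and rank 31 by p. Of the 4 AMOTL2 peaks, 3 were below the median enrichment of the list. The first was above the last, as in 55.4% of the genes with 2 or more peaks there.

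**Figure D5:**
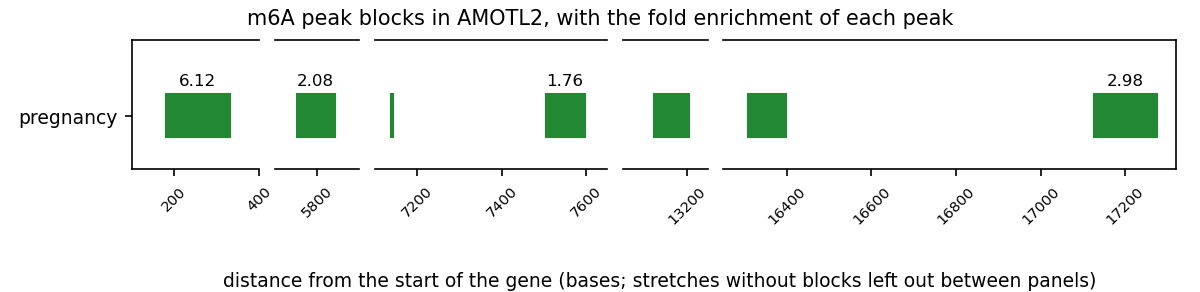
m6A peak blocks of AMOTL2 in the pregnancy list, drawn to scale along the gene (x axis, bases from its first base, with empty stretches left out between panels); each number is the fold enrichment of 1 peak, written above its longest block. The highest value, 6.12, belongs to the peak nearest to the start, and the last block ends at the end of the gene.

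WWTR1, at 128932456 to 129205193 on chromosome 1, had no peak in the pregnancy list, which held 163 plus-strand peaks before the gene and 75 after it. The strand of WWTR1 was not looked up, and the analysed minus-strand part held only 44 peaks. On that strand the gene could lie beyond the part analysed. The authors' tables of sites compared between stages did list a WWTR1 site in exon 1 of 7, at 129029698 to 129029758 for estrus and anestrus and at 129029698 to 129029788 for estrus and pregnancy, with 61 bases shared. The table for estrus and anestrus also listed an AMOTL2 site in exon 1 of 10, at 147090888 to 147090948, 178 bases beyond the first pregnancy peak of that gene. Only the positions of these sites were used.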

How the data were processed

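The authors trimmed reads with fastp, aligned them with HISAT2 (version 2.0.4 per the submitters' processing notes) to a Bos grunniens genome, and StringTie gave the gene levels. The deposited FPKM values hold 1 value per gene and input library. The deposited peak lists give, for each stage, a fold enrichment as the ratio of immunoprecipitate to input, and a score, the log10 p and log10 FDR of each peak. The notes name ChIPseeker 1.18.0, and the peak caller is not given in the sources used here. Of each file the leading part was analysed, less 1 incomplete line. FPKM keep no counts, so the depth behind each value is unknown, no counting interval is given, and the number of samples limits the precision. Tables comparing stages also hold the authors' fold changes and p-values, which were not used.

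Genes with a mean of at least 0.1 FPKM over the 9 input libraries (130 of 173) were fitted with limma 3.58.1 (R 4.3.3, with trend) on log2(FPKM + 0.1), all 3 stages in 1 fit without estrus 2, with Benjamini-Hochberg adjustment over the 130 genes. Fold changes on this scale understate those of low genes. The study's own test needs counts. Exact two-sided permutation tests of VGLL3 over samples gave 0.4 for each comparison after adjustment over the 3. The limma fit was tested on simulated data. Alternatives were the pseudocount, the filter, estrus 2 included, scaling, 2 stages only, no trend, a replicate block and leaving out each library. Peaks were compared by exonic bases, with an overlap of at least 1 base. The genes named were the members, pathway genes called in a comparison, and the 3 genes most correlated with VGLL3. F3, ITGB2, CHMP2B, USP25, ROBO2 and ADAMTS1 were named after their values were seen. The members and lists were chosen with earlier results of these data known. Replicates are separate ovary samples. The members matched a RefSeq table by symbol, 10 of 10, but its assembly differs from that of the files and none of its coordinates were used.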

Additional observations from a re-analysis of the deposited data

How the results depend on the processing

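VGLL3 kept its direction in all 3 comparisons under all 10 alternative settings and all 8 fits that each left out a library. Many of these could not change a difference. The filter, the fit of 2 stages only and the fit without the trend left all 3 differences as they were. Leaving out a library likewise left the comparison of the other 2 stages unchanged. Without anestrus replicate 1, estrus minus anestrus was close to no difference, at -0.02. The number of members called in estrus against pregnancy went from 0 to 1 with estrus replicate 2 included and with the replicate block. In the first the log2 difference was -2.06 (adjusted p = 0.442 in limma). In the second, with the replicate number as a block, it was -1.16 (unadjusted p = 0.0235, adjusted p = 0.500 in limma). The numbers were not taken to pair the samples, since over 7 pairs of samples with the same number the correlation of deviations from the stage means ran from -0.17 to 0.389 and passed 0.1 in 1. The block changed no other call of a member or pathway gene. Over 19 settings the adjusted limma p of VGLL3 was 0.494 to 0.973 for estrus against anestrus, 0.268 to 0.899 for estrus against pregnancy and 0.818 to 0.991 for pregnancy against anestrus.

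Leaving out 1 library gave log2 differences of -0.76 to -0.02 for estrus minus anestrus, -1.12 to -0.74 for estrus minus pregnancy and 0.15 to 0.89 for pregnancy minus anestrus, where the ends of the last range came without anestrus replicate 2 and without anestrus replicate 1. The count of members and pathway genes called was 0 in each of these fits. The fits without estrus replicate 1 or 3 leave 1 estrus library, which is assumed to vary like the other stages, so they say little of how stable the estrus comparisons are. Of all 130 genes, the calls ranged over these fits from 1 to 9 in estrus against anestrus (main value 2), 3 to 9 in estrus against pregnancy (main value 3) and 1 to 4 in pregnancy against anestrus (main value 3), and both counts of 9 came without estrus replicate 3, with that lone estrus library.

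Taking the highest peak of a gene in place of the median moved the fold enrichment of VGLL3 from 8.91 to 20.8 at anestrus and from 10.98 to 17.8 in pregnancy, left 13.8 at estrus, and moved AMOTL2 from 2.53 to 6.12. Estrus stood highest by the median and lowest by the highest peak. Its median is a single peak near the start of the gene, while those of anestrus and pregnancy include weaker 3′ UTR peaks. The order by the median therefore does not compare like peaks. At a log10 FDR of at most -2, 2 of the 3 anestrus peaks of VGLL3 were left and the other counts did not change. With an overlap of 50% of the shorter peak all 3 stage pairs still shared a VGLL3 peak. Depth is unknown and peaks have no replicates.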
